A study of Mus musculus with 8 samples.

Results

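The genes described here encode 9 enzymes that remove reactive oxygen or limit its formation: the superoxide dismutases Sod1, Sod2 and Sod3, the catalase Cat, the glutathione peroxidases Gpx1, Gpx3 and Gpx4, and the stress-inducible enzymes Hmox1 and Nqo1. They were taken by name from the gene column of both deposited tables, and all 9 were present among the 24469 genes listed. RNA had been sequenced from hand-picked pancreatic islets of mice aged 8 weeks. The knockout (KO) group was 4 mice on the C57BL/6 background that had lost the function of 4 small nucleolar RNAs hosted by introns of Rpl13a, a gene for a protein of the large ribosomal subunit: U32a, U33, U34 and U35a. The wild-type (WT) group was 4 C57BL/6 mice. The labels name no Cre or promoter that would limit the deletion to a cell type, and do not say whether the mice were littermates. The comparison asks which islet transcripts change in level when these snoRNAs are lost.

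Superoxide, a by-product of respiration and of oxidases, is converted to hydrogen peroxide by the dismutases: SOD1 in the cytosol, SOD2 in the mitochondrial matrix and SOD3 outside the cell. Hydrogen peroxide is then broken down by catalase, mostly in peroxisomes, or reduced by glutathione peroxidases with glutathione as the electron donor, while GPX4 reduces lipid peroxides in membranes. Pancreatic islets are known for low catalase and glutathione peroxidase activity compared with liver, where catalase is abundant. GPX1, GPX3 and GPX4 are selenoproteins, whose active-site selenocysteine is encoded by a UGA codon that otherwise ends translation.

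The codon that sets these 3 peroxidases apart from the other members is shown with its coding context, because their synthesis needs the selenium machinery measured further on. Each stretch has 51 bases, is read 5′ to 3′ from the GENCODE M21 transcript, and has the in-frame selenocysteine codon in capitals, as TGA in DNA letters.
Gpx1: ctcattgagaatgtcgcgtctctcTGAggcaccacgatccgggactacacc
Gpx3: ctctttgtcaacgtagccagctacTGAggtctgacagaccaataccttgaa
Gpx4: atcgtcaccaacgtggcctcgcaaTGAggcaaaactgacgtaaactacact
In GRCm38, all on the plus strand, the capitals lie at chr9:108339451-108339453 for Gpx1, chr11:54907256-54907258 for Gpx3 and chr10:80054737-80054739 for Gpx4. The annotation places them inside coding exons, as codon 47 of the Gpx1-201 transcript, codon 73 of Gpx3-201 and codon 129 of Gpx4-201, the last counted from the start of the longer Gpx4 form. Gpx1 and Gpx4 share 29 of the 51 bases in this window, Gpx3 and Gpx4 share 26, and Gpx1 and Gpx3 share 24. None of the 9 genes lies on chromosome 7, which carries Rpl13a.

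Between 21.2 and 41.1 M counts per library were assigned to genes, and 12 beta-cell genes took 8.65 to 16.4% of them in KO and 10.04 to 24.0% in WT, and each of the 12 was detected. Of these 12, 11 were negative on the log2 scale of KO over WT (median -0.44), and 0 passed FDR 0.05 in edgeR, while 8 had an unadjusted p under 0.05; over all genes 51.3% were positive and 18.7% had such a p. Snord32a had 0 counts over the KO libraries and 9 over the WT libraries, Snord33 had 0 and 6, and Snord34 and Snord35a had 0 in both groups. A library stood apart: KO replicate 2 had 9135 CPM (counts scaled to a library total of 1e+06) on 26 liver genes, against 24.4 to 34.5 in the other KO libraries and 16.8 to 25.1 in WT, and all 26 were highest there. Albumin reached 3678 CPM in KO replicate 2 and 2.97 to 6.14 in the other KO libraries, and was at 2.03 to 2.54 in WT. The 8 adipocyte genes summed to 237 CPM in KO replicate 2, of which 230 were on Car3, while Adipoq, Plin1 and Cfd had 0 counts in all libraries. Of the 11 macrophage genes, 6 were highest in KO replicate 2 (5 after TMM scaling, beside 14.7% of all genes). The list summed to 50.9 CPM there, 13.2 to 29.3 in the other KO libraries and 15.6 to 40.5 in WT. Acinar genes of the exocrine pancreas took 22.1, 5.33, 27.8 and 17.7% of counts in KO replicates 1 to 4 and 26.4, 2.05, 14.4 and 4.97% in WT replicates 1 to 4. Every result on the members is therefore given for all 8 libraries and again without KO replicate 2. In bulk RNA of this kind, fewer cells of a type and less RNA per cell cannot be told apart.

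All 9 members passed the filter on low counts in both fits. None passed a false discovery rate (FDR) of 0.05 in edgeR's quasi-likelihood test of KO against WT, with or without KO replicate 2. Over all genes tested, 0.0147% passed with the 8 libraries and 0.0145% without KO replicate 2, so a count of 0 among 9 is close to that background. At an unadjusted p under 0.05, Sod2 and Cat passed with 8 libraries and Cat alone without KO replicate 2, where 18.7% and 16% of all genes did so. By limma-voom 0 members were called in either set of libraries. DESeq2 called 0 of the members to which it gave an adjusted p, and gave none to Sod3, Hmox1 and Nqo1 in either set or to Cat with 8 libraries. In CPM with TMM scaling, the scale used for the members from here on, no member had KO and WT libraries that did not overlap. Over all genes 8.34% did with 8 libraries (3.68% with KO higher and 4.66% with KO lower), and 12.5% did without KO replicate 2 (5.47% with KO higher and 7.01% with KO lower).

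**Figure D1:**
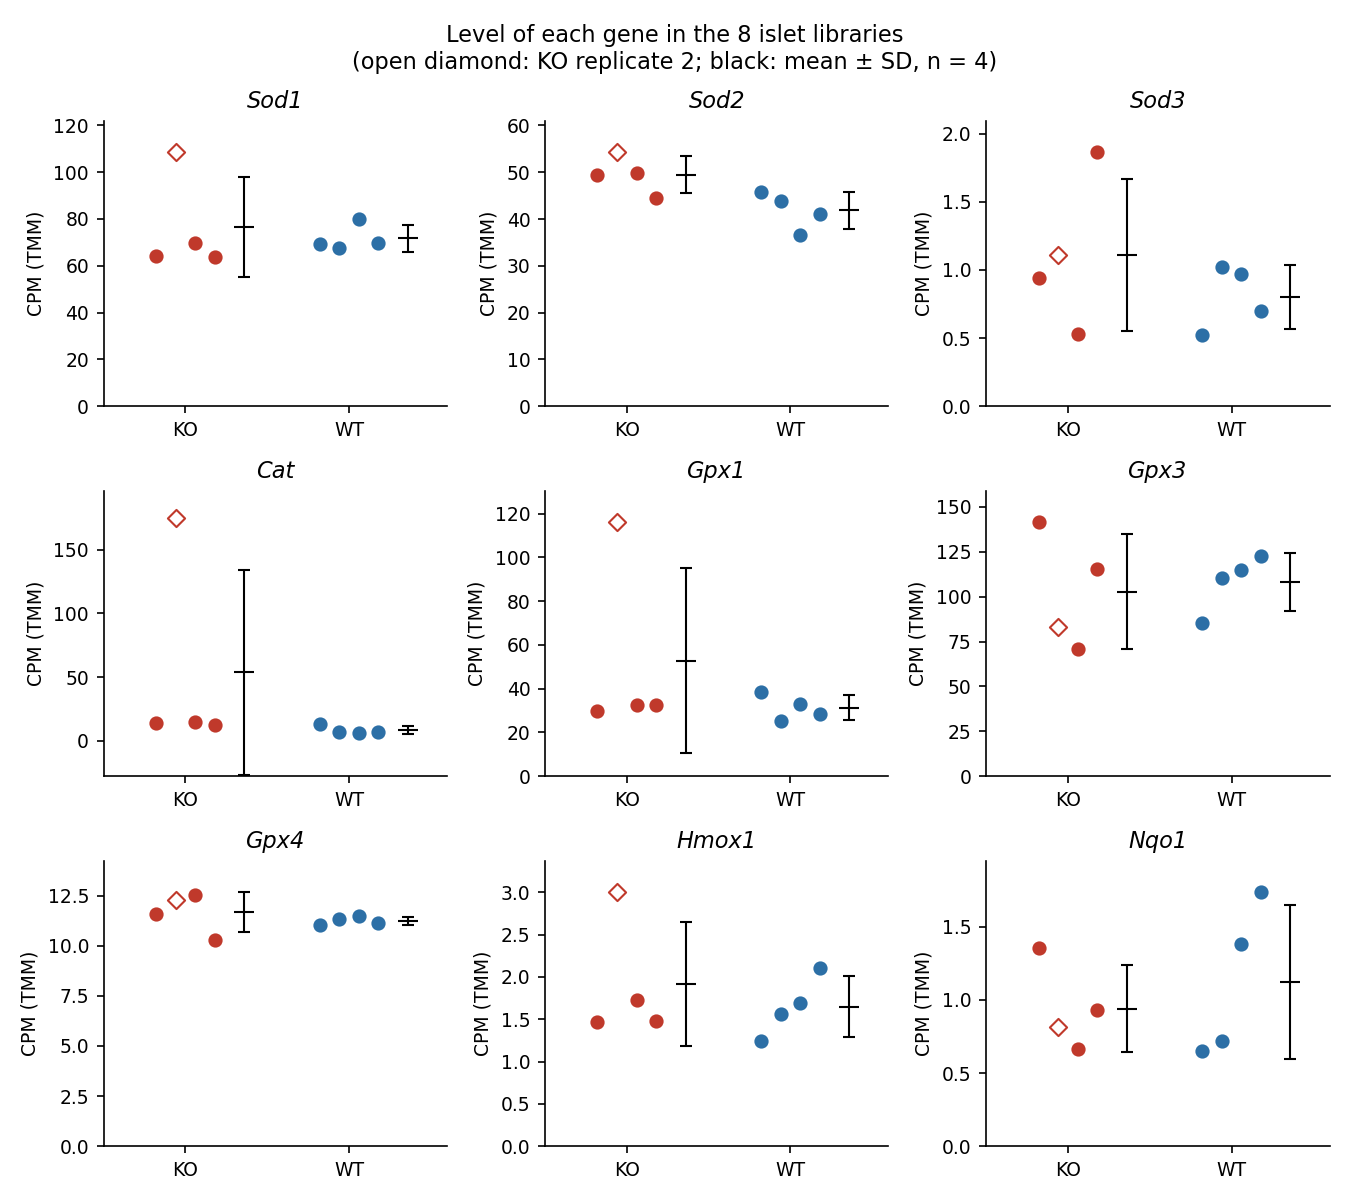
CPM of each of the 9 genes in the 8 libraries, with KO left and WT right on a linear axis; KO replicate 2 is an open diamond and the black bars are the mean ± SD of 4 libraries. In Cat and Gpx1 the diamond stands far above all other points, at 175 and 116 CPM.

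Sod1, the copper-zinc dismutase of the cytosol, had 64.2, 108, 69.9 and 63.7 CPM in KO replicates 1 to 4 and 69.5, 67.6, 80.0 and 69.6 CPM in WT replicates 1 to 4. KO replicates 1 and 4 were below every WT library, KO replicate 3 was inside the WT range, and KO replicate 2 was above it. Its log2 fold change (± SE, as for all fold changes here) was 0.10 ± 0.16 with 8 libraries (edgeR adjusted p = 0.774) and -0.12 ± 0.10 without KO replicate 2 (adjusted p = 0.573). The sign depended on that library, and neither value passed the test. Without it the 95% interval of the log2 difference ran from -0.35 to 0.11.

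Sod2, the manganese dismutase of mitochondria, had 49.5, 54.3, 49.7 and 44.5 CPM in KO replicates 1 to 4 and 45.8, 43.9, 36.6 and 41.1 CPM in WT replicates 1 to 4. In 3 of 4 KO libraries it lay above every WT library, and KO replicate 4 lay below WT replicate 1 and above the other WT libraries. The log2 fold change of 0.24 ± 0.10 had an unadjusted p of 0.0330 and an adjusted p of 0.236. It was 0.19 ± 0.11 without KO replicate 2 (edgeR adjusted p = 0.386), with an interval from -0.043 to 0.43. Sod2 was among the members least affected by KO replicate 2, which was 1.09 times the highest of the other libraries. On the authors' RPM scale (reads scaled to a larger library total, with no correction for composition) the KO and WT means were 27.3 ± 7.40 and 25.3 ± 5.10 RPM (SD, n = 4 each), and without KO replicate 2 the difference changed sign, at 24.0 ± 3.65 RPM in KO (n = 3).

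Sod3, the secreted dismutase that binds to the extracellular matrix, was close to the detection limit, with 16, 34, 12 and 58 counts in KO replicates 1 to 4 and 16, 34, 28 and 25 counts in WT replicates 1 to 4. In CPM these were 0.941, 1.11, 0.53 and 1.86 in KO and 0.522, 1.02, 0.968 and 0.700 in WT. KO replicates 2 and 4 stood above the WT range, replicate 2 only slightly, and KO replicates 1 and 3 lay inside it. Its log2 fold change was 0.49 ± 0.37 (edgeR adjusted p = 0.486), and 0.51 ± 0.41 without KO replicate 2 (adjusted p = 0.548). With the acinar share added to the fit without KO replicate 2 it was 0.99 ± 0.44 (unadjusted p = 0.0416, adjusted p = 0.574). It was 0.11 without KO replicate 4, and with both KO replicates 2 and 4 left out it was -0.15. Before TMM scaling, KO replicate 4 also had the highest summed level of the 10 stellate and fibroblast genes. That sum was 365 CPM, against 112 to 234 in the other KO libraries and 137 to 255 in WT. After TMM scaling, Rgs5 alone was at 198 CPM in KO replicate 4. Rgs5, Col1a1, Col1a2, Col3a1, Dcn and Lum were highest in that library, while Pdgfrb, Acta2 and Des were not. The part of stellate cells and fibroblasts in the Sod3 value was not tested. Nearest to Sod3 in pattern, by the root mean square difference of centred log2 CPM over the 8 libraries among 5894 genes of at least 3 log2 CPM, were Sparc (difference 0.34), Epas1 (0.34) and Ptprb (0.35), genes for a matrix protein, a hypoxia-inducible factor and an endothelial phosphatase. Sparc, chosen by a measure that included KO replicate 4, was highest in that library. It had 202 CPM there, 81.0 to 129 CPM in the rest of KO and 105 to 126 CPM in WT.

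Cat, the gene for catalase, had the largest log2 fold change of the 9 members in both fits. It had 13.6, 175, 14.98 and 12.4 CPM in KO replicates 1 to 4 and 12.8, 7.04, 5.84 and 6.75 CPM in WT replicates 1 to 4. KO replicate 2 held 11.7 times the level of the highest other library and 12.8 times the mean of the other 3 KO libraries. KO replicates 1 and 3 lay above every WT library, and KO replicate 4 lay just below WT replicate 1 and above the other WT libraries. With 8 libraries the log2 fold change was 2.74 ± 1.097 (edgeR adjusted p = 0.257), with an interval from 0.080 to 5.40. It was 0.75 ± 0.25 without KO replicate 2, with an interval from 0.20 to 1.30, an edgeR unadjusted p of 0.0123 and an adjusted p of 0.232. For the same 7 libraries the adjusted p of Cat was 0.0641 in DESeq2 and 0.240 in limma-voom. With library weights in limma-voom it was 0.0548.

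With KO replicate 2 left out, Cat averaged 13.7 ± 1.27 CPM in KO (SD, n = 3) and 8.11 ± 3.18 CPM in WT (n = 4), a difference that did not pass the test over all genes. Those 3 KO libraries took 17.7 to 27.8% of their counts from acinar genes. WT replicate 1, the WT library with the highest Cat level, took 26.4%, against 2.05 to 14.4% in the other WT libraries. The share of acinar counts was then added as a covariate to the fit without KO replicate 2. In it the log2 fold change of Cat was 0.43 ± 0.19 (edgeR unadjusted p = 0.0394, adjusted p = 0.574). Without KO replicate 2 and WT replicate 1, and with no covariate, it was 1.06 and passed the test (edgeR adjusted p = 0.0052). In that fit 1296 of 13687 genes passed. Without KO replicate 2, 6 of the 7 liver genes tested were positive on the log2 scale (median 0.45), beside 49.9% of all genes. Of the 7, 3 had an unadjusted p under 0.05 in edgeR, beside 16% of all genes, and 0 passed FDR 0.05. Albumin, the liver gene of smallest p there, had 4.24 to 5.53 CPM in those KO libraries and 1.65 to 2.80 CPM in WT. The part of acinar or liver RNA in the Cat difference was not tested beyond these values.

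In the authors' RPM, Cat was at 6.22, 121, 6.39 and 7.86 in KO replicates 1 to 4 and at 5.82, 4.95, 3.38 and 4.66 in WT replicates 1 to 4. On that scale every KO library was above every WT library, which held with KO higher for 0.793% of all genes with 8 libraries and for 1.05% without KO replicate 2. The limma-trend test on log2(RPM + 1), which called 0.372% of all genes with 8 libraries and 0.58% without KO replicate 2, did not call Cat in either set, with a log2 fold change of 1.46 ± 1.00 (adjusted p = 0.811) with 8 libraries and 0.47 ± 0.24 (adjusted p = 0.354) without KO replicate 2.

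**Figure D2:**
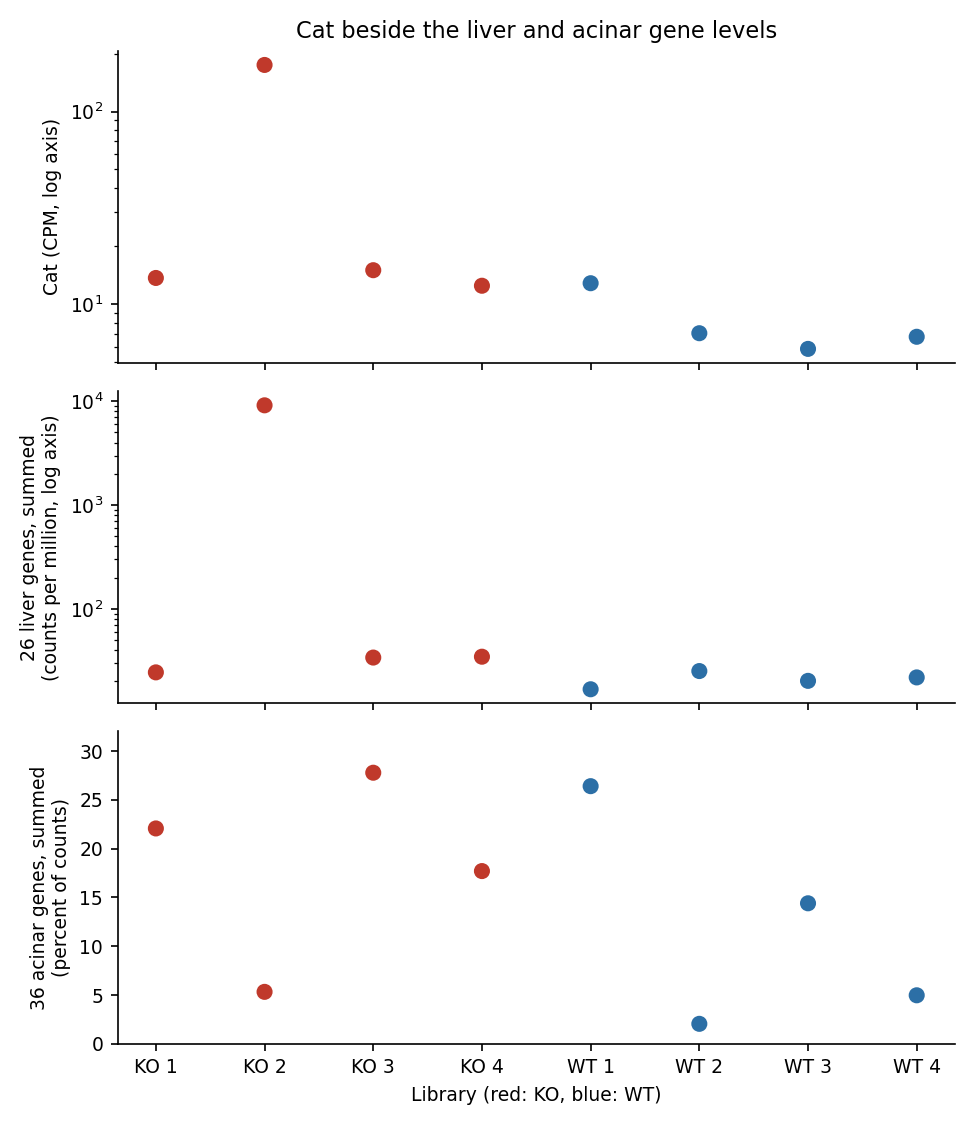
Cat CPM with TMM scaling (top) and the summed CPM of 26 liver genes without TMM scaling (middle), both on log axes. The bottom panel has the percent of counts on 36 acinar genes, with KO libraries in red and WT in blue. KO replicate 2 is highest in the top and middle panels, at 175 CPM and 9135 CPM, and is the KO library lowest in acinar share, at 5.33%.

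The genes whose pattern over the 8 libraries was nearest to that of Cat, by the same measure, were Ambp (difference 0.51), Tat (0.53) and Cp (0.53). Ambp and Tat were among the liver genes listed, and Cp encodes ceruloplasmin, a plasma protein secreted by liver. Ambp had 96.6 CPM in KO replicate 2, 7.65 to 8.71 CPM in the other KO libraries and 7.37 to 8.52 CPM in WT. All 4 genes were highest in KO replicate 2, a library that entered the measure of likeness to Cat, so this is tied to the choice of genes.

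Gpx1, the abundant glutathione peroxidase of cytosol and mitochondria, had 29.8, 116, 32.5 and 32.5 CPM in KO replicates 1 to 4 and 38.7, 25.3, 33.0 and 28.3 CPM in WT replicates 1 to 4. Apart from KO replicate 2, at 2.998 times the highest other library, all KO libraries lay inside the WT range. With 8 libraries the log2 fold change was 0.75 ± 0.51 (edgeR adjusted p = 0.451). It was 0.014 ± 0.14 without KO replicate 2 (adjusted p = 0.969), with an interval from -0.29 to 0.32. Nearest to Gpx1 in pattern were Sc5d (difference 0.11), Mat1a (0.16) and Fads2 (0.17), which encode enzymes of cholesterol synthesis, methionine metabolism and fatty acid desaturation. All 3 were highest in KO replicate 2, which is tied to their choice by likeness to Gpx1 over the same libraries. Mat1a was at 129 CPM there, 35.7 to 50.1 CPM in the other KO libraries and 27.5 to 47.5 CPM in WT.

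Gpx3, the secreted glutathione peroxidase found in plasma, had 141, 83.3, 70.7 and 115 CPM in KO replicates 1 to 4 and 85.1, 110, 115 and 122 CPM in WT replicates 1 to 4. KO replicates 1 and 3 marked both ends of the range. With 8 libraries the estimate was -0.075 ± 0.21 on the log2 scale (edgeR adjusted p = 0.866), and it was 0.013 ± 0.22 (adjusted p = 0.981) without KO replicate 2. KO replicate 3 and WT replicate 1, the lowest library of each group, had the highest acinar share of their group, at 27.8 and 26.4%. The other KO libraries did not follow that order: KO replicate 1 had the highest Gpx3 level at an acinar share of 22.1%, and KO replicate 2 had 83.3 CPM at 5.33%. The part of acinar RNA in the Gpx3 spread was not tested.

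Gpx4, the peroxidase that reduces phospholipid peroxides and restrains ferroptosis, had 11.6, 12.3, 12.5 and 10.3 CPM in KO replicates 1 to 4 and 11.02, 11.3, 11.5 and 11.1 CPM in WT replicates 1 to 4. It was the least variable member, with a SD of 0.088 in log2 CPM over the 8 libraries. Its log2 fold change was 0.053 ± 0.10 (edgeR adjusted p = 0.795), and 0.028 ± 0.12 without KO replicate 2 (adjusted p = 0.921). The second interval, from -0.22 to 0.28, bounds a difference that was not detected at this depth.

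Hmox1, the heme oxygenase induced by heme and oxidative stress, had 1.47, 3.0, 1.72 and 1.48 CPM in KO replicates 1 to 4 and 1.24, 1.57, 1.69 and 2.10 CPM in WT replicates 1 to 4. The KO libraries other than replicate 2 lay inside the WT range. Counts were low, at 25 to 92 in KO and 38 to 75 in WT. Over 8 libraries the log2 fold change was 0.23 ± 0.27 (edgeR adjusted p = 0.675), against -0.086 ± 0.24 (adjusted p = 0.877) without KO replicate 2. In that library 5 of 11 macrophage genes were highest on the TMM scale, and all 26 liver genes were before scaling. The other macrophage genes were not, and Cd14 was at 0.522 CPM there, 0.795 to 1.12 in the rest of KO and 0.484 to 0.753 in WT. The part of either cell type in the Hmox1 value was not tested.

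Nqo1, the quinone reductase that is a classical target of the transcription factor NRF2, had 23, 25, 15 and 29 counts in KO replicates 1 to 4 and 20, 24, 40 and 62 counts in WT replicates 1 to 4. In CPM it was at 1.35, 0.815, 0.663 and 0.932 in KO and at 0.652, 0.723, 1.38 and 1.74 in WT. The groups overlapped, with WT replicates 3 and 4 high. Over 8 libraries the estimate was -0.28 ± 0.36 on the log2 scale (edgeR adjusted p = 0.700), and without KO replicate 2 it was -0.22 ± 0.40 (adjusted p = 0.803). The interval without that library, from -1.1 to 0.66, was wide at these counts.

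**Figure D3:**
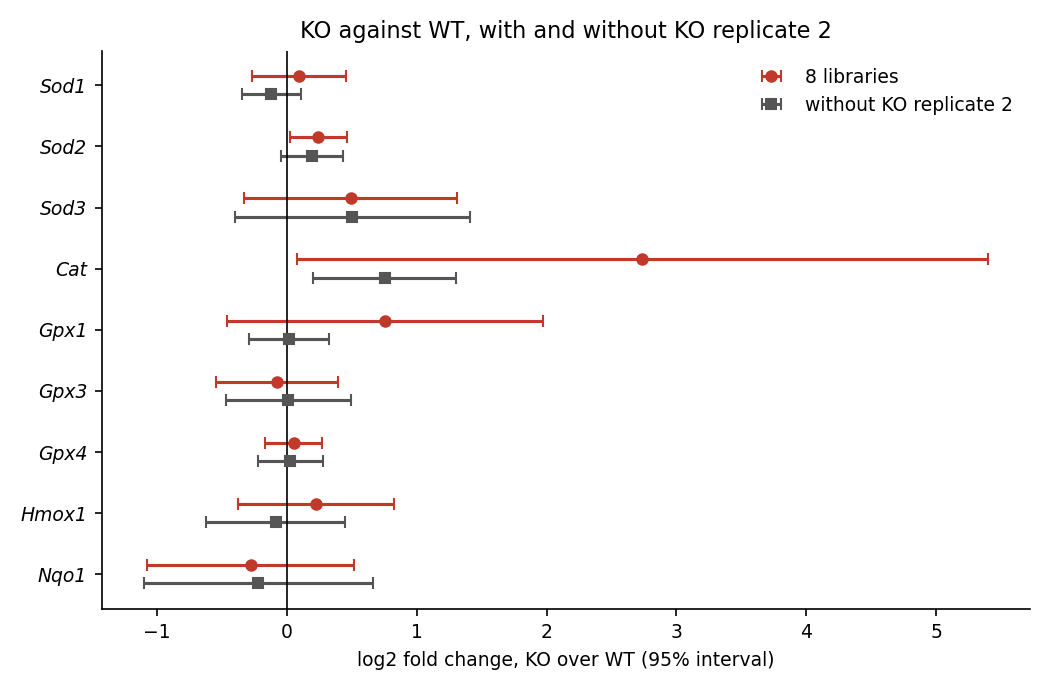
Log2 fold change of KO over WT for each gene with its 95% interval from edgeR's quasi-likelihood fit, with all 8 libraries (red circles) and without KO replicate 2 (grey squares). The Cat estimate is 2.74 with 8 libraries and 0.75 without KO replicate 2, Gpx1 moves to 0.014, and the other intervals change less.

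With KO replicate 2 in the fit, 7 of 9 members were positive on the log2 scale and the median fold change was 0.23 in log2, beside 51.3% positive and a median of 0.0098 over all genes tested. Without it 6 of 9 were positive, with a median of 0.014, beside 49.9% and a median of -0.00095 over all genes. Cat, Gpx1, Hmox1, Sod1 and Sod2 were highest in KO replicate 2, or 5 of 9 members, against 14.7% of all genes. Cat and Gpx1 were at least 2-fold above every other library there, which held for 2.03% of all genes.

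Compared per kilobase of annotated exon, the order of levels in WT was Sod1, Gpx3, Gpx1, Gpx4, Sod2, Cat, Hmox1, Nqo1 and Sod3. Sod1 averaged 103 ± 5.38 CPM per kilobase in KO without replicate 2 (n = 3) and 112 ± 8.80 in WT (n = 4), and Gpx3 averaged 68.5 ± 22.4 and 67.9 ± 10.1. Gpx1 was at 29.5 ± 1.46 CPM per kilobase in those KO libraries and 29.2 ± 5.46 in WT. Catalase was well below these, at 5.24 ± 0.49 CPM per kilobase in KO without replicate 2 and 3.10 ± 1.22 in WT. Sod3 was the lowest member, at 0.297 ± 0.183 and 0.215 ± 0.063 CPM per kilobase. Within WT only Hmox1 and Nqo1 were neighbours whose libraries overlapped, while in KO without replicate 2 the overlapping neighbours were Gpx4 with Sod2 and Nqo1 with Sod3. The order of the means was the same in both. In KO replicate 2 Cat reached 66.8 CPM per kilobase, which was 21.5 times the WT mean. The length of a gene was that of its protein-coding transcripts' exons merged, from 0.641 kilobases for Sod1 to 5.861 for Sod2. The order rests on these lengths: before division Sod2 was above Gpx1 in WT, at 41.8 and 31.3 CPM. The lengths came from GENCODE M21 and not from the annotation used for counting, and levels under other lengths were not computed.

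**Figure D4:**
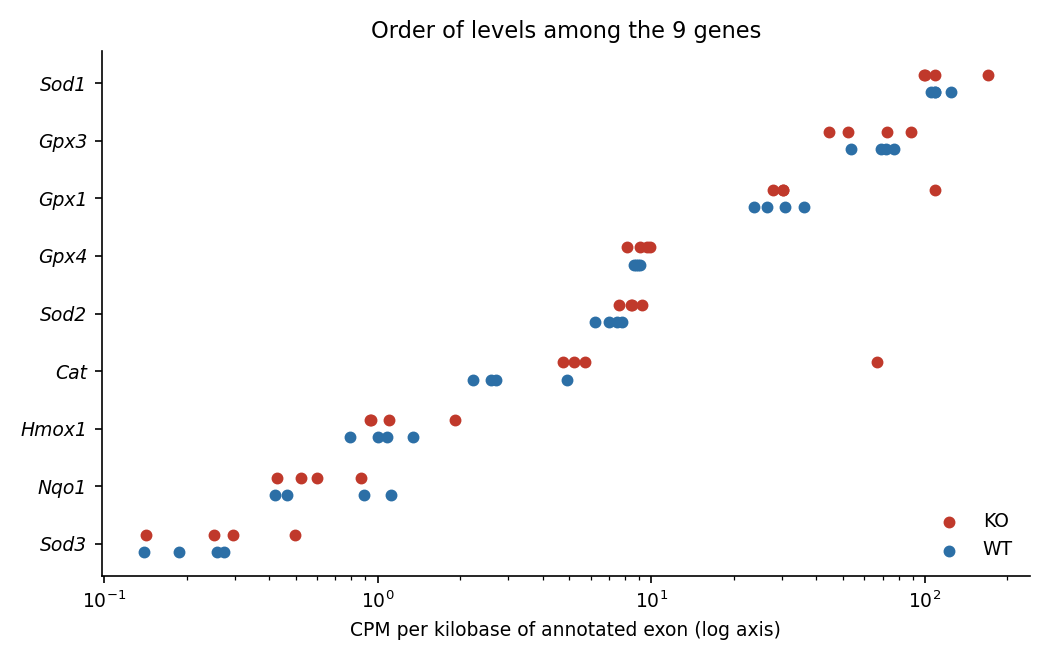
Level of each gene in CPM per kilobase of annotated exon on a log axis, 1 point per library, with KO in red above WT in blue and genes in the order of their WT means. Sod1 and Gpx3 stand at the top and Sod3 at the bottom, and the Cat point of KO replicate 2 at 66.8 lies away from all other Cat points.

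The genes around these enzymes were read from 5 lists. Of their 101 tested genes 0 passed FDR 0.05 in edgeR's test with or without KO replicate 2, and 19 and 22 had an unadjusted p under 0.05, beside 18.7% and 16% of all genes. By limma-voom 0 passed in either set, while DESeq2 called Gstm1, Prdx1, Sephs2 and Slc48a1 with 8 libraries and Gstm1 alone without KO replicate 2, among 517 and 245 genes in all. Of 28 tested peroxiredoxin, thioredoxin, glutathione and related genes, 21 were positive on the log2 scale (median 0.14), and without KO replicate 2 there were 17 with a median of 0.027. Prdx1, a peroxiredoxin of the cytosol, had 84.5 ± 30.8 CPM in KO and 53.9 ± 6.30 CPM in WT (SD, n = 4 each), with a log2 fold change of 0.65 ± 0.22 that was 0.37 ± 0.12 without KO replicate 2 (edgeR adjusted p = 0.192 and 0.231). Nqo2, a quinone reductase related to Nqo1, had 7.18, 9.85, 6.80 and 7.90 CPM in KO replicates 1 to 4 and 6.20, 5.60, 6.19 and 5.55 CPM in WT replicates 1 to 4. Every KO library lay above every WT library for Nqo2, as for 3.68% of all genes, and Nqo2 was chosen for its small p in this list. Its log2 fold change was 0.44 ± 0.14 with 8 libraries and 0.31 ± 0.13 without KO replicate 2 (edgeR adjusted p = 0.170 and 0.287).

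The 23 genes of the NRF2 axis, its regulators and targets, had 13 positive values and a median of 0.11, against 11 and -0.035 without KO replicate 2. Gstm1, a glutathione transferase gene, had 33.1, 68.2, 26.1 and 24 CPM in KO replicates 1 to 4 and 19.96, 18.3, 16.8 and 18.4 CPM in WT replicates 1 to 4. All KO libraries were above all WT libraries, also without KO replicate 2, as for 3.68% and 5.47% of all genes. Gstm1 was chosen for its small p in this list, and without KO replicate 2 its log2 fold change was 0.59 ± 0.13 (edgeR adjusted p = 0.180). Abcc1, an exporter of glutathione conjugates, had a log2 fold change of -0.31 ± 0.11 (adjusted p = 0.189). Of the 23 genes, 10 were highest in KO replicate 2, beside 14.7% of all genes. The widest case, chosen after its values were seen, was the glutathione transferase gene Gsta3, with 61.3 CPM in KO replicate 2, 2.02 to 3.75 CPM in the other KO libraries and 0.504 to 1.24 CPM in WT. Its log2 fold change was 4.50 ± 1.46 with 8 libraries and 1.90 ± 0.32 without KO replicate 2 (edgeR adjusted p = 0.206 and 0.120). In both sets all KO libraries were above all WT libraries, beside the same 3.68% and 5.47% of all genes. The part of liver RNA in the Gsta3 values was not tested.

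Of the 10 genes for selenoprotein synthesis and selenium transport, 5 were positive and 5 negative, with a median of -0.0021 with 8 libraries and 0.022 without KO replicate 2. Sephs2, which makes the selenium donor for selenocysteine, had 10.9, 16.6, 9.59 and 7.78 CPM in KO replicates 1 to 4 and 7.89, 2.71, 5.11 and 3.75 CPM in WT replicates 1 to 4. Its log2 fold change was 1.21 ± 0.36 with 8 libraries and 0.95 ± 0.32 without KO replicate 2 (edgeR adjusted p = 0.173 and 0.246). WT replicate 1 reached the KO range, and it is the WT library richest in acinar RNA. KO replicate 2, the highest library for Sephs2, had the lowest acinar share of KO, at 5.33%. Sepp1, the gene for the selenium carrier selenoprotein P, had 410 ± 88.1 CPM in KO and 274 ± 73.1 CPM in WT (SD). By library it had 345, 515, 449 and 330 CPM in KO replicates 1 to 4 and 370, 218, 292 and 217 CPM in WT replicates 1 to 4. Its log2 fold change was 0.58 ± 0.20 with 8 libraries and 0.45 ± 0.20 without KO replicate 2 (edgeR adjusted p = 0.193 and 0.30). WT replicate 1 was again the highest WT library, at 370 CPM. KO replicate 2, the library high in liver genes, was the highest of all. The part of acinar or liver RNA in the Sephs2 and Sepp1 values was not tested. The selenoprotein members printed with their codons had smaller estimates without KO replicate 2, between 0.013 and 0.028 in log2 fold change.

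Heme and iron genes had 10 positive values of 15 and a median of 0.16, against 5 of 15 and -0.11 without KO replicate 2. Slc48a1, a heme transporter, had 19.4, 19.3, 22.1 and 20.8 CPM in KO replicates 1 to 4 and 24.6, 24.9, 27.2 and 26.02 CPM in WT replicates 1 to 4. All KO libraries were below all WT libraries, as for 4.66% of all genes, and Slc48a1 was chosen for its small p in this list. Its log2 fold change of -0.33 ± 0.088 did not pass over all genes (edgeR adjusted p = 0.144). Fth1, the ferritin heavy chain gene, had a log2 fold change of 0.23 ± 0.11 (adjusted p = 0.270).

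Peroxisome genes, which share the organelle with catalase, had 16 positive values of 25 and a median of 0.10, against 13 of 25 and 0.0097 without KO replicate 2. Hsd17b4, an enzyme of peroxisomal fatty acid oxidation, had a log2 fold change of 0.76 ± 0.27 with 8 libraries and 0.44 ± 0.20 without KO replicate 2 (edgeR adjusted p = 0.193 and 0.314). In KO replicate 2, 10 of the 25 were highest, beside 14.7% of all genes. The same held for 12 of the 28 peroxiredoxin, thioredoxin, glutathione and related genes and 7 of the 15 heme and iron genes. It held for 2 of the 10 genes for selenoprotein synthesis and selenium transport.

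**Figure D5:**
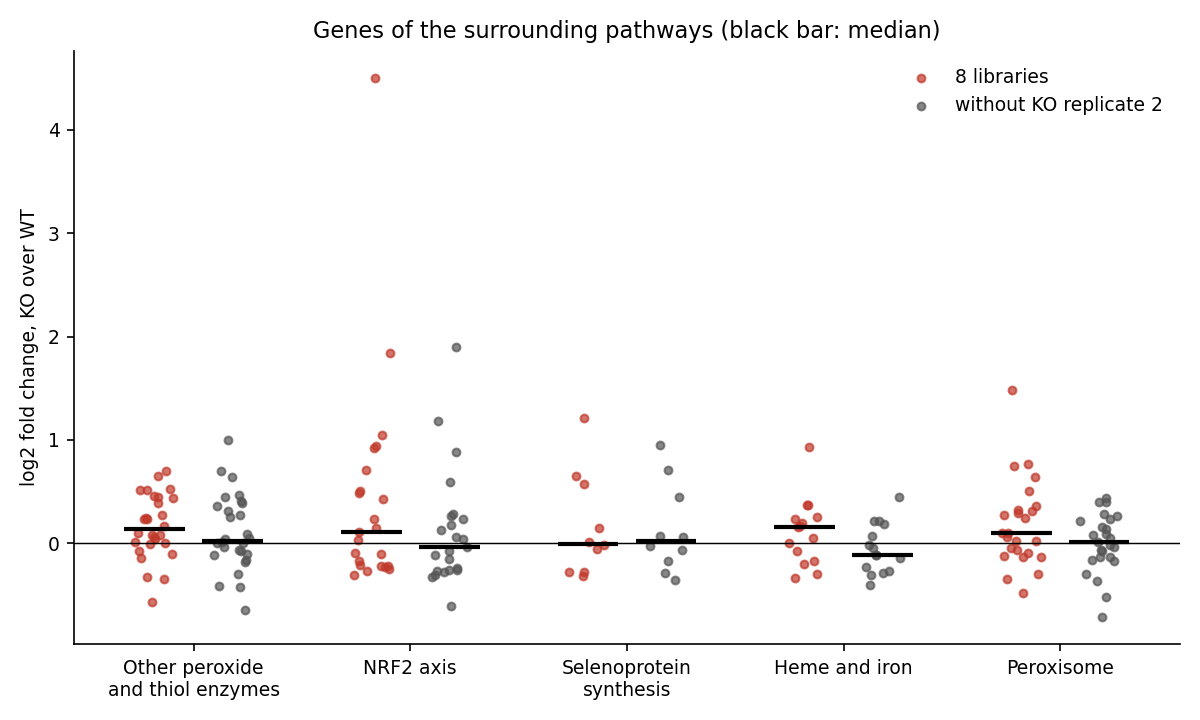
Log2 fold change of KO over WT for each tested gene of 5 lists, with all 8 libraries (red) and without KO replicate 2 (grey); the black bars are list medians. Gsta3 is at 4.50 with 8 libraries and 1.90 without KO replicate 2, and without that library the medians lie between -0.11 and 0.027.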

How the data were processed

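Libraries were made from total RNA with the SeqPlex kit, per the labels' protocols, and the submitters' processing notes name STAR 2.4.1, Partek and the build mm9. What each did, the gene annotation and the strand setting are not stated there. One deposited table has estimated counts of genes, of which 9.98 to 12.4% per library were not whole within 0.01; those of the 9 genes were within 0.04 of a whole number, and all were rounded. The other has RPM made by the authors, scaled to 37.3 to 67.5 M reads per library and offset by 0.0001.

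Rounded counts were fitted with edgeR 4.0.16 in R 4.3.3 (TMM, filterByExpr, robust quasi-likelihood F-test) over 13617 genes with 8 libraries and 13773 without KO replicate 2, with Benjamini-Hochberg adjustment over all of them and a threshold of 0.05. RPM were tested with limma 3.58.1 (limma-trend, pseudocount 1, genes of at least 0.5 RPM in as many libraries as the smaller group), which understates changes of low genes. DESeq2 1.42.0 was an alternative. Standard errors come from the F statistic, and intervals are 95%. No 2 libraries were copies (smallest chi-square per degree of freedom 26.4). Each library is labelled as from its own mouse. The members had 12 to 5355 counts per library, and the lowest counts were those of Sod3, Nqo1 and Hmox1.

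Exon lengths, codons and chromosomes came from GENCODE M21 and RefSeq (GRCm38), not the submitters' mm9, and were matched by symbol for all 9 genes. In that annotation no exon of another gene overlapped theirs. All 9 members are named; of each list around them, the 2 genes of smallest p where none passed FDR 0.05 (1 gene so chosen is not reported here); and for the 3 most variable members, the 3 genes nearest in pattern. The members and lists were chosen with earlier results of these data known. Marker lists not described in the report ran as follows in KO and in WT, in summed CPM without TMM: endothelial 154 to 331 and 168 to 416, ductal 98.3 to 149 and 97.1 to 167, erythroid 41.8 to 505 and 35.3 to 458, and alpha, delta and PP cell 2214 to 6225 and 2739 to 5244.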

Additional observations from a re-analysis of the deposited data

Results flagged for a closer look

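In 5 of the 18 groups of 4 libraries examined (each of the 9 genes in KO and in WT), 1 library lay far from the other 3 by Dixon's criterion. Chance meets that criterion in about 1 of 20 independent groups. The 9 genes were measured in the same libraries, so the 18 groups are not independent. In 4 of them the library was KO replicate 2. Cat had 174.6 CPM there and 12.4 to 14.98 CPM in the other KO libraries. Gpx1 had 116 CPM there and 29.8 to 32.5 CPM in the rest of KO. Sod1 was at 108.4 CPM, against 63.7 to 69.9 CPM. Hmox1 was at 3.0 CPM, against 1.47 to 1.72 CPM. KO replicate 2 is also the library with 9135 CPM on liver genes, and the part of that RNA in these values was not tested; the values of the comparison without the library are given with each gene. The fifth was WT replicate 3 for Sod1, with 80.0 CPM there and 67.6 to 69.6 CPM in the rest of WT.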

How the results depend on the processing

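No member passed FDR 0.05 under any alternative except Cat without both KO replicate 2 and WT replicate 1 (1 member and 1296 genes in all, Cat at 1.06); DESeq2 gave no adjusted p for Sod3, Hmox1 and Nqo1 in either set or for Cat with 8 libraries, so it could not call them. Log2 fold changes of Cat and Sod3 kept their direction in all alternatives with 8 libraries, as did Sod2 and Gpx1, but the Cat value ran from 0.75 (without KO replicate 2, or with the liver share as a covariate) to 3.07 (without KO replicate 4). Leaving out each library in turn gave ranges of -0.12 to 0.17 for Sod1, -0.28 to 0.055 for Gpx3, -0.086 to 0.37 for Hmox1 and -0.49 to 0.019 for Nqo1. Once KO replicate 2 was out, leaving out a further library gave -0.15 to 0.84 for Sod3, -0.075 to 0.13 for Gpx1, -0.22 to 0.25 for Gpx3, -0.043 to 0.10 for Gpx4, -0.20 to 0.054 for Hmox1 and -0.48 to 0.079 for Nqo1.

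Other changes of sign with 8 libraries were Gpx4 at -0.076 with no composition factor, Sod1 at -0.0050 with library weights, Sod1 and Gpx4 at -0.081 and -0.083 with RPM plus 1 and at -0.084 and -0.095 with RPM plus 0.1, Sod1, Gpx3 and Hmox1 at -0.12, 0.014 and -0.087 with the liver share as a covariate, and Sod1 and Hmox1 at -0.13 and -0.20 without KO replicate 2 and WT replicate 1. Without KO replicate 2 they were Sod2, Gpx1, Gpx3 and Gpx4 at -0.12, -0.23, -0.29 and -0.29 with no composition factor, at -0.065, -0.22, -0.29 and -0.21 with RPM plus 1 and at -0.067, -0.23, -0.30 and -0.24 with RPM plus 0.1. Those 3 settings moved the median of all genes to -0.30, -0.19 and -0.26, and with 8 libraries to -0.11, -0.10 and -0.14. Gpx3 was at -0.031 with limma-voom and -0.13 with library weights, and Gpx1, Gpx4, Hmox1 and Nqo1 were at -0.19, -0.0012, 0.095 and 0.11 after adjustment for acinar share, which put Sod3 at 0.99. The cause of these changes was not tested.

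The replicate number does not pair the mice by the labels, and deviations of same-numbered libraries correlated at 0.038, 0.21, 0.16 and 0.15. With the replicate block 2 genes and 0 members passed over 8 libraries, where Cat was at 1.63 (adjusted p = 0.486). Without KO replicate 2 the block put Gpx1 at -0.064 and Gpx3 at -0.018, and 7 genes and 0 members passed. Counts of all genes past the threshold, 2 in either set, were 48, 45 and 50 with no composition factor, RPM plus 1 and RPM plus 0.1, 517 with DESeq2, 549 with library weights and 2 to 1313 when each library was left out (1313 without WT replicate 1, 5 without KO replicate 4). Without KO replicate 2 they were 32, 71 and 81 under the same 3 scalings, 20 with no filter, 1 at CPM of at least 1, 245 with DESeq2 and 1 to 1296 when a further library was left out, with 0 to 1 members. Sod3 did not reach CPM of at least 1 in 4 libraries and had no value there.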
